A study of Mus musculus with 6 samples.

Results

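The genes described here are 36 genes of dermal fibroblasts and the extracellular matrix, measured in whole skin of mouse embryos. They are 12 collagen chains, matrix proteoglycans, elastic fibre and adhesive proteins, fibroblast surface proteins and the transcription factors Twist1 and Twist2. They were chosen by name from a fixed list, made with earlier results of these data known. Each was read from probe sets that the array's annotation pairs with that gene alone. Of the 36 genes, 35 had such a probe set, 83 probe sets in all, out of 18193 named genes and 45037 probe sets on the array. Fbn1, which encodes fibrillin-1, was not analysed here. Where a gene had several, the brightest on average (mean log2 signal over the 6 samples) stood for it.

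RNA came from skin at embryonic day 16.5, from 3 samples labelled Tcfap2c mutant and 3 labelled control, on 1 Affymetrix array each. The mutated gene, whose current symbol is Tfap2c, makes the transcription factor AP-2 gamma of surface ectoderm and epidermis. The sources used here do not give the allele, the part of the gene altered, a Cre driver, the strain or the genotype of the controls, and the description field of the controls repeats the mutation. Nor do they say whether the samples are separate embryos or litters, so p-values reflect only how these 6 samples vary, which may be technical. Tfap2c signals were 1247 to 1596 in mutant and 1193 to 1347 in control samples, and since the altered part of the gene is not given, these values do not check the labels.

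Fibroblasts of the dermis secrete the matrix on which the epidermis rests. Type I and type III collagen form fibrils, type V collagen starts fibril assembly, and small leucine-rich proteoglycans bind fibrils and shape their spacing. Elastin is laid down on fibrillin microfibrils and cross-linked by lysyl oxidase, which gives skin its recoil. Pdgfra and Twist2 are widely used marks of the embryonic dermal lineage.

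As AP-2 proteins bind GC-rich sites, the promoters of the members were searched for the palindromic AP-2 consensus GCCNNNGGC, and for CCAAT and TATAAA, on both strands of the 250 bases before each start in RefSeq (GRCm38.p6). Of the 36 members, 23 had a promoter among the sequences at hand, and the others were not searched. GCCNNNGGC was found in 7 of these 23 (30.4%), against 15.4% of 27025 genes, CCAAT in 8 (34.8%, against 37.5%) and TATAAA in 5 (21.7%, against 14.3%). The 7 members with GCCNNNGGC were Col4a1, Col4a2, Col5a1, Fbln1, Postn, Twist2 and Vcan. The windows of Col4a1, Col4a2, Col5a1 and Vcan overlapped an annotated gene, so they are not purely intergenic sequence. Fbln1 and Postn had 2 windows each and were not checked for such overlap. The differences of the 7 members between mutant and control skin, on the log2 scale described with the results, had a median of -0.058. They ranged from -0.16 to 0.15. The 15 measured members that were searched and lacked it had a median of -0.0009 and ranged from -0.41 to 0.28. Neither range covers Thy1, Mfap4 and Eln, which were not searched and had the only differences beyond 0.5 (-0.78, -0.81 and -0.73). A match of letters is a description and no evidence of binding. The paralogues Twist2, which has the consensus, and Twist1, which lacks it, are shown with the promoters of 2 fibrillar collagen chains that lack it, Col1a2 and Col3a1. Capitals mark GCCNNNGGC, CCAAT and TATAAA on either strand, which did not overlap in these windows.
Twist2 (chr1:91801211-91801460, plus strand): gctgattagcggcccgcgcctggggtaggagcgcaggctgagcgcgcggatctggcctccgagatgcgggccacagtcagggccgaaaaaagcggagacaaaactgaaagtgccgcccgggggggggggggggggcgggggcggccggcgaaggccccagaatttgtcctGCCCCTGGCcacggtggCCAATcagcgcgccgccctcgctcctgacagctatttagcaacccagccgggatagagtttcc
Twist1 (chr12:33957421-33957670, plus strand): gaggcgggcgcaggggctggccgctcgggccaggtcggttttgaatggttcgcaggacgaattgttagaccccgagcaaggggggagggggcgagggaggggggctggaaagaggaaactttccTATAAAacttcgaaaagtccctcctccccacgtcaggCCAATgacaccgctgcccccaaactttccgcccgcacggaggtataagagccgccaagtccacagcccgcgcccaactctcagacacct
Col1a2 (chr6:4505368-4505617, plus strand): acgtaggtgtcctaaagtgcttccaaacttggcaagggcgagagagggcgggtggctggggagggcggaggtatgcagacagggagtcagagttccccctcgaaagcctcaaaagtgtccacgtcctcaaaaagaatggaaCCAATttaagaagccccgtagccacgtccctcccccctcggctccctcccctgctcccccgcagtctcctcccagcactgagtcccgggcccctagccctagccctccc
Col3a1 (chr1:45311288-45311537, plus strand): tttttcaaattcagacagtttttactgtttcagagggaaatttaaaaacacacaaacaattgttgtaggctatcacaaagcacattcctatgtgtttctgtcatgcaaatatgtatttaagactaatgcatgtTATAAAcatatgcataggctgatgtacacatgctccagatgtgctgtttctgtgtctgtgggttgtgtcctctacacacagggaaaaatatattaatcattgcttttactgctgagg

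The values are MAS5 signals, the array's intensity per probe set, and differences are mutant minus control on the log2(signal + 24.5) scale. The trimmed means of the arrays averaged 500, and the array medians ran from 110.4 to 131.5. Mutant sample 1 stood apart. It correlated with the rest at 0.94 on average (0.961 or more for every other array), and its first principal component score was -65.1, against 0.35 to 28.3. The X-inactivation transcript Xist was high in mutant sample 1 and control samples 1 and 2 and low in the other samples, so by this mark the groups differ in their mix of sexes. In bulk RNA, fewer fibroblasts and less RNA per fibroblast cannot be told apart.

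Mutant and control signals overlapped for 33 of the 35 measured dermal matrix genes, and no member passed the test. All 35 measured members passed the filter on dim probe sets, with signals between 242 and 42047, so dermal transcripts were present on each array although the series title speaks of epidermis. At a limma adjusted p of 0.05, 0 of 35 members were called, in a fit where 0.00863% of 11589 genes (1 gene) were. At an unadjusted p under 0.05 there was 1 member, Thy1 (2.86%), against 3.42% of genes in either direction and 1.84% with the lower mean in the mutant, as for Thy1. The median difference of the members was -0.052, against -0.014 for all genes, and 23 members had a lower and 12 a higher mean in the mutant samples. A negative difference was found for 53.5% of all genes. The difference was within 0.1 of 0 for 18 of 35 members, against 5089 of 11589 genes. It was beyond 0.5 for 3 members, namely Thy1, Mfap4 and Eln (8.57%, against 4.51% of genes).

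The 95% interval of the difference lay within 0.5 of 0 for 20 members and within 1 for 30 (85.7%, against 91.7% of genes). It reached beyond 1 for Fmod, Eln, Mfap2, Mfap4 and Thy1. For Thy1 this followed from the size of its difference, as its SE of 0.15 was below that of Ogn (0.37), whose interval stayed within 1. The groups did not overlap for Thy1 and Mfap4, both lower in the mutant samples (5.71% of members), where 8.02% of all genes did not overlap, 4.47% with the mutant samples lower. This count was 8 without mutant sample 1 (22.9%, against 22.5% of genes), 5 (14.3%) with mutant sample 2, mutant sample 3 or control sample 2 left out (21.6%, 17.2% and 16.5% of genes), and 3 (8.57%) without control sample 1 or 3 (14.6% and 13.5% of genes). Fewer samples overlap less by construction.

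**Figure D1:**
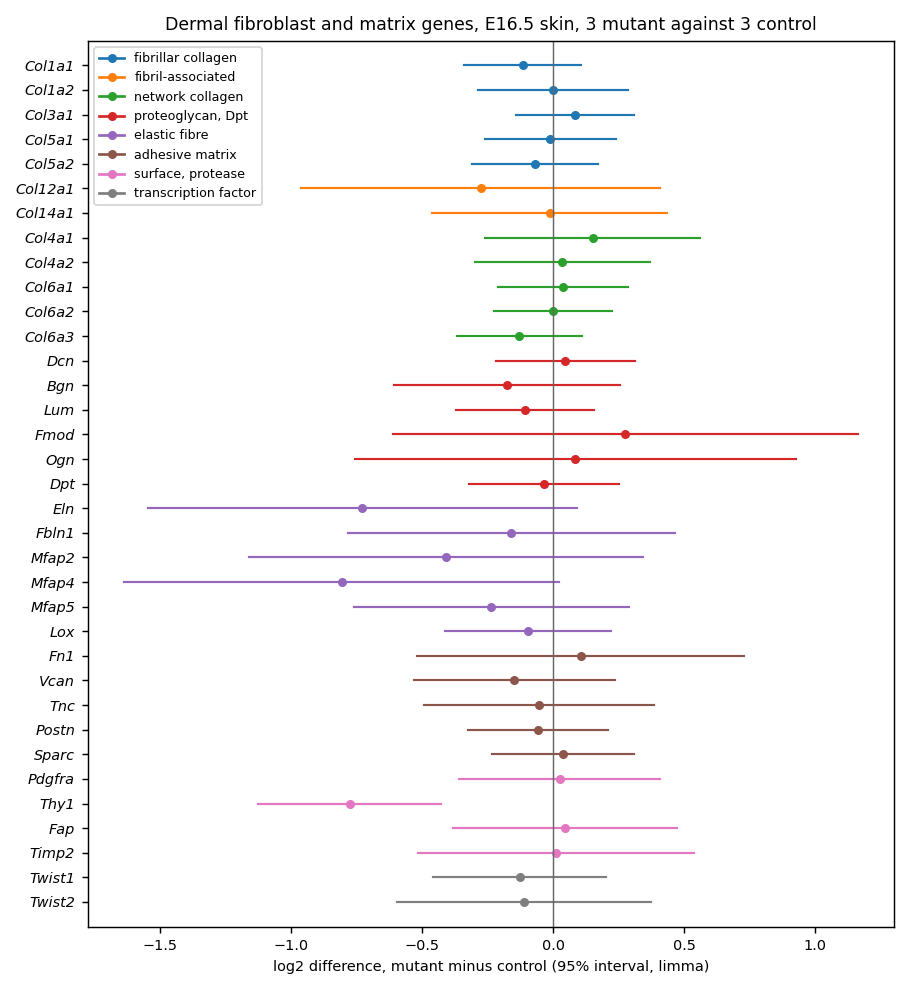
Log2 difference (mutant minus control, horizontal axis) with its 95% interval from limma for the 35 measured genes (vertical axis), coloured by role, with 3 samples in each group. The points of the fibrillar collagens lie between -0.12 and 0.08, and the interval of Thy1 (-1.13 to -0.43) is the only one that leaves out 0.

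In the brightest probe set of each, the signals of all 5 fibrillar collagen chains overlapped between groups. Col1a1 and Col1a2 encode the chains of type I collagen, the main fibril of skin. Col1a1 had signals of 18905, 20253 and 19075 in mutant samples 1, 2 and 3 and 22257, 19881 and 21034 in control samples 1, 2 and 3. The highest mutant value lay above the lowest control value, and the difference was -0.12 (SE 0.10), with a 95% interval of -0.34 to 0.11. Col1a2 signals were 26816, 28739.7 and 28048 in the mutant and 30174, 23220.3 and 30931 in the control samples. All 3 mutant values lay inside the control range, with a difference of -0.0013 (95% interval -0.29 to 0.28). Another bright probe set for Col1a2 gave -0.095. A dim one, with signals of 139 to 179 in mutant and 219 to 242 in control samples, gave -0.48. Col3a1, the chain of type III collagen, which is abundant in fetal skin, had signals of 39527, 42047 and 38593 in mutant and 41653, 36172 and 35791 in control samples. Mutant sample 2 was highest, mutant samples 1 and 3 lay within the control range, and the difference was 0.083 (95% interval -0.14 to 0.31). A second probe set for Col3a1 gave -0.20.

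Type V collagen, which limits fibril width, was measured through its chains Col5a1 and Col5a2. Col5a1 had signals of 9407 to 10649 in mutant and 9494 to 10692 in control samples, with a difference of -0.010. Its dimmer probe sets gave -0.18 and -0.32. In the first of these, mutant signals of 4581 to 5231 lay below control signals of 5290 to 6057. Col5a2 had signals of 15954, 13516 and 15245 in mutant and 16138, 15109 and 15586 in control samples, with a difference of -0.070. Mutant sample 2 was the lowest of the 6 for Col5a2, and the other mutant values lay inside the control range. For these 5 chains, each read from its brightest probe set, 4 differences were negative and 1 positive (3 and 2 without mutant sample 1). None passed the test, and all 5 intervals lay between -0.34 and 0.31. The dimmer probe sets of all 5 chains had negative differences, and none of these passed either.

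Collagens XII and XIV attach to the surface of fibrils. Col12a1 had signals of 1085, 1806 and 2775 in mutant samples 1, 2 and 3 and 2042, 1806 and 2649 in control samples. Its lowest value was in mutant sample 1 and its highest in mutant sample 3. The difference of -0.28 (SE 0.30) became 0.066 without mutant sample 1. Col14a1 had signals of 4665, 2820.3 and 4005 in mutant and 3349, 3612 and 4482 in control samples. The lowest and the highest of the 6 values were both in mutant samples, and the difference was -0.013 (SE 0.20).

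The network collagens also overlapped between groups. Col4a1 and Col4a2, the chains of the basement membrane network, lie side by side in the genome. Col4a1 had signals of 15428, 11368 and 9351 in mutant and 11913, 10503 and 9577 in control samples, a difference of 0.15 (SE 0.18). Col4a2 had signals of 2879 to 3956 in mutant and 2986 to 3308 in control samples, a difference of 0.036. For both chains the highest value was in mutant sample 1, and without it the differences were -0.043 and -0.10. The chains of the beaded type VI filament, Col6a1, Col6a2 and Col6a3, had differences of 0.037, -0.0009 and -0.13. Col6a3 had signals of 12044, 13169 and 11360.3 in mutant and 13660.5, 12708 and 13569.9 in control samples, with mutant samples 1 and 3 below every control and mutant sample 2 within the control range.

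Among protein-coding genes, 4 pairs of members are direct neighbours. Beside the type IV pair these are Col3a1 with Col5a2, Col6a2 with Col6a1, and Dcn with Lum. The values of the first pair, 0.083 and -0.070, had opposite signs. So did -0.0009 and 0.037, and 0.047 and -0.11 for Dcn and Lum. None of these 8 genes passed the test.

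Of the small proteoglycans, Dcn (decorin), Lum (lumican), Bgn (biglycan), Fmod (fibromodulin) and Ogn (osteoglycin) bind collagen. Dpt (dermatopontin) links decorin to the matrix. Dcn had signals of 20354, 16748 and 16583 in mutant and 18029.8, 16102 and 17669 in control samples, a difference of 0.047 (95% interval -0.22 to 0.31). The highest value was in mutant sample 1, and the other mutant samples lay within the control range. Lum had signals of 13878, 15788 and 17800.3 in mutant and 17022, 16575 and 17286 in control samples, a difference of -0.11. Here the lowest value was in mutant sample 1 and the highest in mutant sample 3. Bgn signals were 5237, 3180.1 and 4416 in mutant and 4289, 4511 and 5497 in control samples, a difference of -0.18 (SE 0.19) that was -0.34 without mutant sample 1 (adjusted p = 0.717, limma). Its lowest value was in mutant sample 2, and its 3 probe sets had the same sign (-0.18, -0.16 and -0.23).

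Ogn varied most among the mutant samples of all 35 members, with an SD of 0.84 on the log2 scale. Its signals were 5562, 1728 and 3471 in mutant and 2361, 2989 and 3969.6 in control samples, so the mutant group held both the highest and the lowest value. The difference was 0.085 (SE 0.37), -0.31 without mutant sample 1 and 0.53 without mutant sample 2. Fmod had signals of 833, 526 and 377 in mutant and 499, 741 and 242 in control samples. The groups overlapped, with a difference of 0.28 (SE 0.39), and its SD was 0.77 in control and 0.55 in mutant samples. Of its 6 probe sets, 5 end in _x_at, which marks probes that can match other transcripts, and the differences of 5 of the 6 were positive. Dpt differed by -0.035, with signals of 7679 to 9861 in mutant and 8709.6 to 9479 in control samples. Of these 6 genes, 3 had a lower and 3 a higher mean in the mutant samples, and none passed the test. All 6 differences were negative without mutant sample 1, with a median of -0.063 against 0.0058 with it.

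All 6 measured elastic fibre genes had a negative difference, with a median of -0.32. The 2 fibril-associated collagens and the 2 Twist genes were also all negative, with medians of -0.15 and -0.12, but without mutant sample 1 each of these pairs held 1 negative and 1 positive difference. None of the 6 passed the test, and the median of the other 29 members was -0.010. Without mutant sample 1, 4 of the 6 were negative, with a median of -0.22. Eln, which encodes tropoelastin, had signals of 1276, 799.9 and 2096 in mutant and 1839, 1607 and 3378 in control samples. Mutant samples 1 and 2 lay below every control, and mutant sample 3 lay between control samples 1 and 3. The difference was -0.73 (SE 0.36, unadjusted p = 0.0753 and adjusted p = 0.9999 in limma), and a second probe set gave -0.84. It was -0.39 without mutant sample 2 and -0.41 without control sample 3.

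Mfap4, a microfibril-associated protein of elastic fibres, had signals of 352, 962 and 963 in mutant and 1057, 1046 and 1677 in control samples. The groups did not overlap, but mutant samples 2 and 3 lay close to control samples 1 and 2. Its difference of -0.81 (SE 0.37, unadjusted p = 0.0551, limma) was -0.34 without mutant sample 1. Mfap2, which binds fibrillin microfibrils, had signals of 1943, 5486 and 4507 in mutant and 5220.4, 4103 and 5289 in control samples. Mutant sample 1 alone lay below the controls, mutant sample 2 was the highest of the 6, and the difference of -0.41 was 0.039 without mutant sample 1. A second probe set for Mfap2, of the _x_at kind, gave 0.98.

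Mfap5, another microfibril glycoprotein, showed the opposite order of mutant samples, with 3789, 1858 and 2919 against 3536, 3044 and 3142 in the controls. Mutant sample 1 was the highest and mutant sample 2 the lowest of the 6. Its difference of -0.24 became -0.47 without mutant sample 1 (unadjusted p = 0.0244 and adjusted p = 0.609, limma). Fbln1 (fibulin-1) had signals of 1456, 3058 and 3051 in mutant and 2635, 2289.7 and 3157 in control samples, a difference of -0.16 that was 0.19 without mutant sample 1. Lox, the lysyl oxidase that cross-links collagen and elastin, had signals of 6012 to 7714 in mutant and 6723 to 8376 in control samples, and differed by -0.095. Of the 6 genes, only Eln kept a difference beyond 0.5 in both fits, with and without mutant sample 1 (-0.72).

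**Figure D2:**
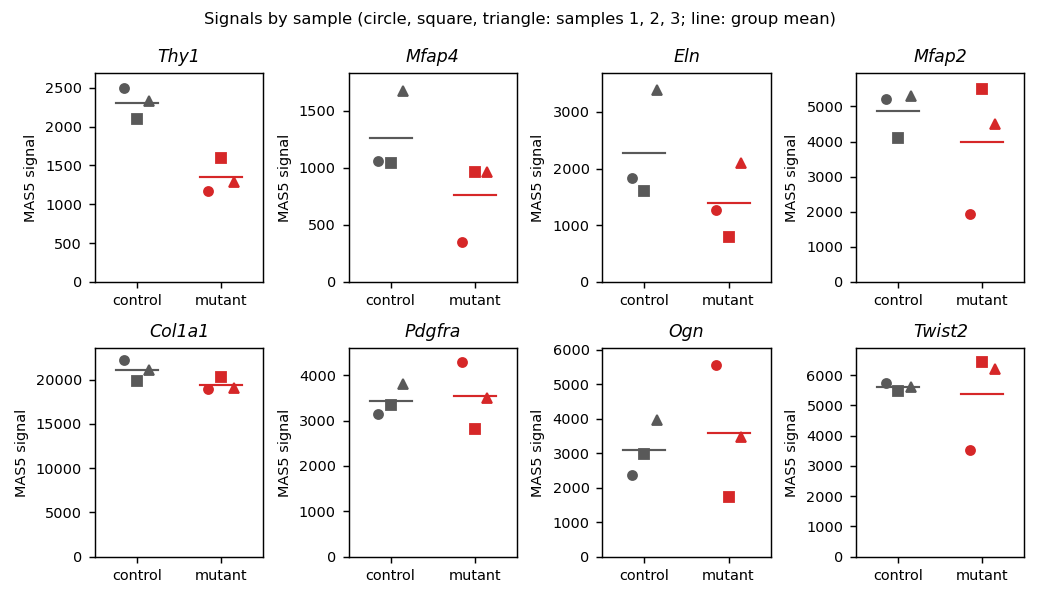
MAS5 signal (vertical axes, linear from 0) of 8 members in the 3 control and 3 mutant samples, with samples 1, 2 and 3 drawn as circle, square and triangle and the group mean as a line. Thy1 is lower in each mutant sample (1168 to 1589) than in any control sample (2104 to 2494), and mutant sample 1 alone is far below the controls for Mfap2 and Twist2.

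The adhesive and counter-adhesive matrix proteins overlapped between groups. Fn1 (fibronectin) had signals of 11116, 4699 and 6717 in mutant and 6290.2, 5715 and 7830.4 in control samples. Mutant sample 1 was the highest and mutant sample 2 the lowest, and the difference of 0.11 (SE 0.28) was -0.22 without mutant sample 1. Vcan, the large proteoglycan versican, had signals of 3807, 2699 and 3361 in mutant and 3209, 3388 and 4325 in control samples. Its difference was -0.15, and its other probe sets past the filter gave -0.34 and -0.49. Postn (periostin) had signals of 22182, 17479 and 18531 in mutant and 21189, 18873 and 20281 in control samples, with mutant sample 1 the highest, mutant samples 2 and 3 below every control, and a difference of -0.058. Sparc, a collagen-binding glycoprotein, differed by 0.038 and Tnc (tenascin-C) by -0.052. The signals of Sparc were 19672 to 22249.7 in mutant and 17918 to 23061 in control samples, and those of Tnc were 683 to 738 and 605 to 988.

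Thy1, a lipid-anchored surface glycoprotein of fibroblasts that is also found on neurons and T cells, had the smallest p of the members. Its signals were 1168, 1589 and 1280.1 in mutant samples 1, 2 and 3 and 2494, 2104 and 2333 in control samples 1, 2 and 3. Each mutant sample lay below every control sample. The difference was -0.78 (SE 0.15, 95% interval -1.13 to -0.43), a ratio of 0.583, with an unadjusted p of 0.000711 and an adjusted p of 0.426 in limma, so it did not pass. Among samples with high Xist, the mutant value was 1168 against 2494 and 2104, and among those with low Xist the mutant values were 1589 and 1280.1 against 2333. With each sample left out in turn the difference ranged from -0.90 to -0.68, and the limma adjusted p from 0.141, without mutant sample 1, to 0.99996, without control sample 1. With array weights, which gave mutant sample 3 a weight of 3.13 against 0.257 for mutant sample 1, Thy1 passed (difference -0.80, limma adjusted p = 0.0173), in a fit where 0.63% of genes passed. The array held 1 probe set for Thy1, so no second probe set checks it.

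Pdgfra, the receptor for platelet-derived growth factor A, is a surface mark of dermal fibroblasts. Its signals were 4299, 2808 and 3486 in mutant and 3139, 3339.6 and 3814 in control samples, a difference of 0.025 (95% interval -0.36 to 0.41). Mutant sample 1 was the highest and mutant sample 2 the lowest, and its other probe sets gave -0.34 and 0.55. Fap, a serine protease of activated fibroblasts, differed by 0.044, with signals of 3317, 1945 and 2510.2 in mutant and 2301, 2499 and 2569 in control samples. Timp2, an inhibitor of matrix metalloproteinases, had signals of 5228, 2593 and 3061 in mutant and 3438, 3629 and 3247 in control samples, a difference of 0.012. For both genes mutant sample 1 was again the highest. Without it, Timp2 was lower in both remaining mutant samples than in any control sample, with a difference of -0.28 (unadjusted p = 0.04 and adjusted p = 0.668, limma).

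The transcription factors Twist1 and Twist2 act in mesenchyme, and Twist2 is also called Dermo1. Twist2 had signals of 3522, 6416 and 6205 in mutant and 5737, 5488 and 5617 in control samples. The lowest value was in mutant sample 1, and the other mutant samples lay above every control. The difference of -0.11 turned to 0.17 once mutant sample 1 was left out. Twist1 had signals of 1738, 1299.5 and 1603 in mutant and 1681, 1632 and 1730.2 in control samples, a difference of -0.13 (SE 0.15). Here mutant sample 1 was the highest and mutant samples 2 and 3 lay below every control. The paralogues thus had opposite orders in mutant sample 1, and neither passed the test.

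Within a sample, members deviated in both directions. Relative to the control mean, the median member stood at 0.05 in mutant sample 1, -0.20 in mutant sample 2 and -0.05 in mutant sample 3, while the controls ranged from -0.08 to 0.05. Mutant sample 1 held the highest of the 6 values for 13 members and the lowest for 8. Over all genes it held the highest for 26.2% and the lowest for 30.8%. Mutant sample 2 held the lowest value for 16 members (45.7%), against 21.3% of all genes. In mutant sample 1, 12 members (34.3%) lay more than 0.5 from the control mean, against 21.5% of all genes, and in mutant sample 3 this was 1 member (2.86%, against 8.06%). The median SD between mutant samples was 0.24 for the members and 0.24 for all genes, and between control samples 0.12 and 0.15.

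**Figure D3:**
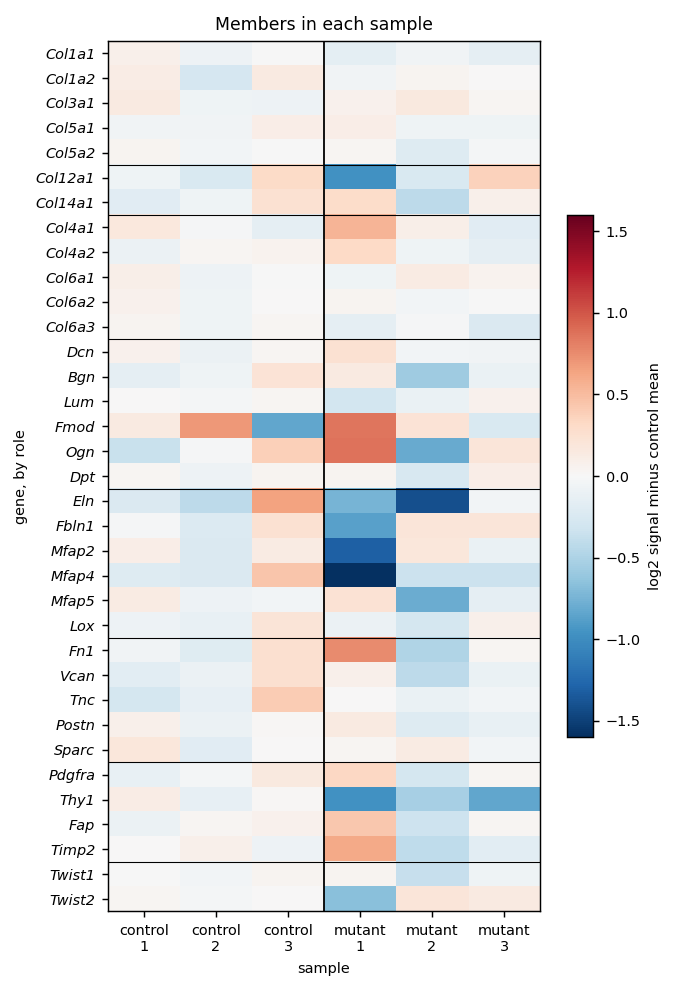
Log2 signal minus the control mean (colour, red higher and blue lower) of the 35 measured genes (rows, grouped by role) in each of the 6 samples (columns). The fibrillar collagens are pale in all samples, mutant sample 1 has both strong red (Fmod, Ogn, Fn1) and strong blue cells (Mfap2, Mfap4, Col12a1), and Thy1 is blue in all 3 mutant samples.

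Markers of smooth muscle and of decidua and uterus moved with mutant sample 1. The marker lists were chosen with earlier results of these data known, so these counts are a description and no independent test. The summed signal of 8 smooth muscle genes was 62241 in mutant sample 1, 8045 and 8451 in mutant samples 2 and 3, and 8840.0 to 10583 in the controls, and all 8 were highest in that sample. The 8 decidual and uterine genes summed to 50530.4 in mutant sample 1, 826 and 718 in the other mutant samples and 360.0 to 567 in the controls. Most of the sum in mutant sample 1 came from Prap1 (32479) and Prl8a2 (14204). Of the 8 genes, 6 were highest in that sample, and 4 passed the filter. The progesterone receptor Pgr, for example, had a signal of 2719 there and of 91.6 to 128 elsewhere. The exceptions, the prolactin-family genes Prl3c1 and Prl5a1, were at 2.18 and 11.6 in mutant sample 1, under the 20th percentile of all values. Uterine stroma and smooth muscle also make many of these matrix proteins, and their part in the values of mutant sample 1 was not tested. Without that sample, 27 of 35 members had a negative difference (77.1%, against 50.9% of genes), with a median of -0.10 against -0.004 for all genes. At an adjusted p of 0.05, 0 members passed (0.233% of genes did), and at an unadjusted p under 0.05 there were 3, Thy1, Mfap5 and Timp2, 8.57% against 6.96% of genes in either direction. All 3 were lower in the mutant samples, as were 3.3% of genes at that threshold.

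Other neighbouring cell types differed less. Summed signals ranged from 3136 to 4000.1 in mutant and 3564 to 4017 in control samples for 6 endothelial genes, and from 6073 to 7336 and 5825 to 6236 for 5 pericyte genes. For 6 keratinocyte genes they were 119504 to 157650.0 and 121544 to 154687, and for 6 skeletal muscle genes 50125 to 53358 and 51210.1 to 59654. The 4 measured adipocyte genes gave 12987 to 19848 and 12064 to 14938, and the 5 leukocyte genes 5148 to 10801 and 5779 to 6154, each highest in mutant sample 1. The 7 measured cartilage and bone genes gave 740.4 to 1157 and 761 to 1423, with the cartilage collagen Col2a1 at 61.9 to 111 and 6.78 to 128. The 2 measured Schwann cell genes, Sox10 and Erbb3, summed to 2795 to 3285 in mutant and 2683 to 2881 in control samples, and Thy1 is also a neuronal gene. The part of nerve in its values was not tested. Rgs5, a pericyte gene, had groups that did not overlap, with 3105, 2533 and 2307 in mutant and 1685, 2204 and 1835 in control samples (difference 0.47, adjusted p = 0.9999, limma).

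**Figure D4:**
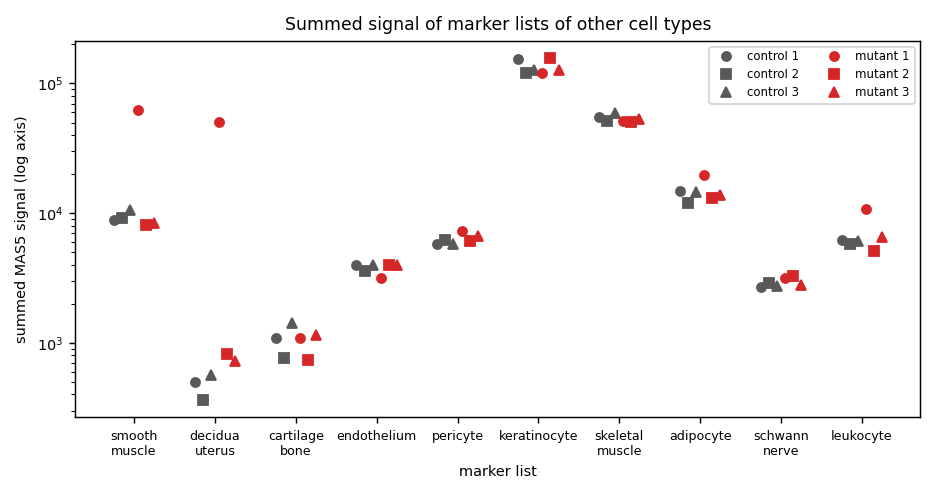
Summed MAS5 signal (vertical axis, log scale) of 10 lists of marker genes of other cell types (horizontal axis) in 3 control (grey) and 3 mutant samples (red), with samples 1, 2 and 3 as circle, square and triangle. Mutant sample 1 stands far above the rest for smooth muscle (62241) and for decidua and uterus (50530.4).

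The wider matrix pathway was followed in 8 lists of 121 further genes, of which 105 passed the filter. No gene of these lists passed an adjusted p of 0.05, and 4 had an unadjusted p under 0.05 (3.81%, against 3.42% of genes), all 4 lower in the mutant samples (1.84% of genes). The groups did not overlap for 6 of the 105 (5.71%, against 8.02%).

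Of 11 further elastic fibre genes, 9 had a negative difference, with a median of -0.055. Without mutant sample 1 it was also 9, with a median of -0.11. Ltbp2, which binds fibrillin and fibulin-5, had signals of 134, 164 and 236 in mutant and 330.4, 255 and 347 in control samples. Each mutant sample lay below every control, with a difference of -0.75 (SE 0.24, unadjusted p = 0.0119 and adjusted p = 0.9999 in limma). Efemp1 (fibulin-3) went the other way, at 5082, 1666 and 3233 against 2242, 2199 and 2268, a difference of 0.43 with overlapping groups.

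Of 18 measured enzymes and chaperones of collagen assembly, 13 had a negative and 5 a positive difference (median -0.056). Without mutant sample 1 this turned to 7 negative and 11 positive (median 0.053). Bmp1, the protease that trims procollagen, had signals of 580.3, 524 and 543 in mutant and 599, 745 and 669 in control samples, without overlap (difference -0.27, SE 0.15). Plod2, a lysyl hydroxylase, had 2673, 1346 and 1649 and 1331, 1520.5 and 1352, a difference of 0.37 with mutant sample 1 the highest. Of 13 other collagens, 6 were negative and 7 positive (median 0.012, and -0.030 without mutant sample 1). Col16a1 differed by -0.24 and Col7a1, the anchoring fibril collagen made by keratinocytes, by -0.33, and both overlapped between groups.

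Among 11 measured proteoglycans and related matrix genes, 7 were negative and 4 positive, with a median of -0.27. Ecm1, a secreted matrix glycoprotein also made in epidermis, had signals of 1486, 2378 and 1126 in mutant and 2465, 2524 and 3127 in control samples. All mutant values lay below the controls, though mutant sample 2 lay close to control sample 1, and the difference was -0.75 (SE 0.25, unadjusted p = 0.0143, limma). Has3, a hyaluronan synthase, had 324, 578 and 371 in mutant and 643, 541 and 684 in control samples, a difference of -0.56 (unadjusted p = 0.033, limma) with overlap between mutant sample 2 and control sample 2. Neither gene passed after adjustment. The 9 basement membrane genes had a median of -0.061, with Nid2 (nidogen-2) at 0.26 and the laminin chain Lamb2 at -0.21.

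Of 12 measured genes of matrix turnover, 10 had a positive difference, with a median of 0.079, and none passed. Without mutant sample 1, 4 of 11 were positive, with a median of -0.089. Mmp23 had signals of 805, 710.5 and 517 in mutant and 466, 614 and 401 in control samples (difference 0.44), and Mmp19 had 222, 112 and 121 and 85.2, 95.6 and 104 (difference 0.51). Both encode metalloproteinases. The groups did not overlap for Mmp19.

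In the TGF-beta pathway, a main inducer of collagen synthesis, 9 of 14 genes were negative (median -0.066), and 12 of 14 without mutant sample 1 (median -0.15). Tgfb1 had signals of 432, 505 and 477 in mutant and 537, 562 and 588 in control samples, without overlap, and differed by -0.25 (SE 0.15). Tgfb3 differed by -0.26, with overlapping groups. Tgfb2, named after its values were seen, had a signal of 8404 in mutant sample 1, while the others lay between 367 and 491.

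Of 17 further genes of the dermal lineage, 11 were negative and 6 positive (median -0.054), and 13 and 4 without mutant sample 1 (median -0.13). Sox18, a transcription factor of vessels and dermal papilla precursors, had signals of 887, 1339.5 and 1157 in mutant and 1673, 1252 and 1651 in control samples, a difference of -0.43 (unadjusted p = 0.048 and adjusted p = 0.9999 in limma). Mutant sample 2 lay within the control range. Tbx18, a transcription factor of the papilla lineage, had 849.8, 618 and 885 and 593, 650.1 and 609, a difference of 0.32. Its mutant samples 1 and 3 lay above every control, and mutant sample 2 within the control range.

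Several members had more than 1 probe set, which read different parts of a transcript. Of 83 probe sets, 71 passed the filter, none passed an adjusted p of 0.05 (0.00444% of all probe sets did). An unadjusted p under 0.05 was found for 2, both lower in the mutant samples (1.97% of all probe sets), the probe set of Thy1 and 1 of the 3 of Col1a2 (-0.48, unadjusted p = 0.0351, limma). That probe set of Col1a2 was dim, with signals of 139 to 242, and the brighter ones gave -0.0013 and -0.095. For 22 members with several probe sets past the filter, all signs matched in 14 and were mixed in 8. The signs matched for Col1a1, Bgn, Eln, Mfap5, Lox and Vcan (all negative) and Col4a1 (positive) among others. They were mixed for Col3a1, Fmod, Fn1, Mfap2, Ogn, Pdgfra, Sparc and Timp2.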

How the data were processed

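Total RNA of 6 skin samples was labelled with biotin for 1-colour Affymetrix mouse arrays, per the labels' protocols. The authors' deposited table gives 1 linear intensity for each probe set, made with MAS5 per the submitters' processing notes (version not given). Trimmed by 2% at both ends, the columns of the 6 samples had means that averaged 500.0. With arrays scaled to a common level, a change of all transcripts at once cannot be seen. Genes were named from GEO's platform annotation, with symbols updated through gene identifiers to RefSeq (GRCm38.p6).

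Signals were analysed as log2(signal + 24.5), 24.5 being the 20th percentile of all values, so folds of dim genes are understated. The 64 control probe sets were left out, and probe sets with a mean above the median were kept (22518). Groups were compared with limma 3.58.1 in R 4.3.3 (mean-variance trend, two-sided, Benjamini-Hochberg over all probe sets). The procedure was also run on simulated data without an outlying array, so that run does not check the effect of mutant sample 1. The other settings were pseudocounts of 1 and 100, other filters, quantile normalization, median centring, no variance trend, array weights, a replicate block, each sample left out, other treatments of probe sets, and Xist as a covariate. All members are named. Values in every sample are given for at least the 2 members with the smallest p in each role group and for Col1a1, Col1a2, Col3a1 and Pdgfra, and up to 2 genes with the smallest p are named from each pathway list. The members and lists were chosen with earlier results of these data known. Figures were drawn with matplotlib 3.10.9.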

Additional observations from a re-analysis of the deposited data

How the results depend on the processing

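Over 12 other settings no member passed in 11, and Thy1 passed with array weights (1 member called, 106 probe sets of all). The count of all probe sets called was 0 among the upper 25% of probe sets, 8 with the replicate number as a block, and 1 to 39 with a sample left out, 39 without mutant sample 1 and 3 without control sample 2. Members called numbered 0 with any sample left out. Deviations of same-numbered samples had correlations of -0.052, -0.073 and 0.11, so the numbers were not taken as a pairing. The block called 0 members and left the median at -0.052. The median of the members lay between -0.10 and -0.0009 with a sample left out and between -0.082 and -0.040 in the other settings. The groups did not overlap for 4 members (11.4%, against 8.27% of genes) after quantile normalization and for 3 (8.57%, against 6.85%) after median centring. This count was 2 in the reported setting and 3 to 8 with a sample left out. Members with an unadjusted p under 0.05 numbered 2 (5.71%) without a filter and after median centring (4.17% and 3.0% of genes), 3 (8.57%) with the replicate block (3.18% of genes) and 7 (20%) with the Xist signal as a covariate (8.02% of genes), a setting chosen after seeing the data. With a sample left out they numbered 1 to 4, namely 3 without mutant sample 1 (8.57%, 6.96% of genes), 4 without mutant sample 3 (11.4%, 3.65%) and 2 without mutant sample 2 or control sample 2 (5.71%, 6.15% and 2.58%). Of the 35 members, 8 kept their sign in every setting run, Thy1, Eln and Mfap4 among them, and no value with another sign passed the threshold. The causes were not tested. The sign changed with array weights for Col1a2 0.017, Col12a1 0.21, Col14a1 0.033, Col4a1 -0.10, Col4a2 -0.10, Dcn -0.033, Lum 0.023, Fmod -0.14, Dpt 0.051, Fbln1 0.13, Lox 0.029, Sparc -0.015, Timp2 -0.15 and Twist2 0.10. When all probe sets of a gene were averaged it changed for Col3a1 -0.056, Col12a1 0.15, Dcn -0.18, Fbln1 0.075, Mfap2 0.29, Fn1 -0.023 and Timp2 -0.041, and with probe sets ending in _s_at, _x_at or _a_at left out for Col3a1 -0.20. With the Xist covariate it changed for Col14a1 0.019 and Col6a2 0.012. With a sample left out it changed at least once for Col1a2 (-0.13 to 0.074), Col5a1 (-0.068 to 0.045), Col12a1 (-0.60 to 0.066), Col14a1 (-0.17 to 0.19), Col4a1 (-0.043 to 0.32), Col4a2 (-0.10 to 0.12), Col6a1 (-0.0094 to 0.092), Col6a2 (-0.034 to 0.031), Dcn (-0.049 to 0.10), Bgn (-0.34 to 0.021), Fmod (-0.14 to 0.62), Ogn (-0.31 to 0.53), Dpt (-0.10 to 0.076), Fbln1 (-0.34 to 0.19), Mfap2 (-0.70 to 0.039), Mfap5 (-0.47 to 0.040), Lox (-0.18 to 0.0059), Fn1 (-0.22 to 0.40), Tnc (-0.19 to 0.15), Postn (-0.16 to 0.013), Sparc (-0.053 to 0.13), Pdgfra (-0.13 to 0.18), Fap (-0.15 to 0.23), Timp2 (-0.28 to 0.22) and Twist2 (-0.26 to 0.17). Fmod had no value among the upper 25% of probe sets, nor Col6a2 once those endings were left out. The precision is limited by 3 arrays a group, and a p that missed the threshold does not show that levels were equal.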
